A study of Mus musculus with 8 samples.

Results

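The 53 genes described here carry out the DNA damage response and DNA repair in mouse cells: damage sensors and checkpoint kinases, and the enzymes and scaffolds of homologous recombination, non-homologous end joining, base excision, nucleotide excision, mismatch and crosslink repair. They were taken by gene symbol from a fixed list, and all 53 were found in both gene tables used here, of 23861 genes for hair follicle stem cells (HFSCs) and 16231 genes for epidermal stem cells (EpdSCs). The measurements were bulk RNA-seq of cells sorted from the back skin of mice, with 2 libraries in each of 4 groups. HFSCs were sorted as CD34+CD49f+Sca-1− and EpdSCs, the stem cells of the epidermis between follicles, as CD34−CD49f+Sca-1+. By the labels, all groups were in telogen, the resting phase of the hair cycle. WT mice were C57BL/6J and matched for hair cycle stage. In Msx2-KO mice a pMC1-neo cassette had been inserted before exon 2 of Msx2, a homeobox transcription factor, so the allele was changed in all cells of the animal and not in the skin alone. WT HFSCs came from mice of 2 months, and WT EpdSCs and both Msx2-KO groups from mice of 6 months. Age and genotype therefore cannot be told apart in HFSCs. The labels do not say whether the 2 libraries of a group came from separate animals, so p-values measure the spread between these libraries, which may be technical.

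DNA damage is first sensed at breaks and stalled forks, where the kinases ATM and ATR are activated and pass the signal to CHK2 and CHK1, to p53 and to scaffold proteins that build up on chromatin around the break. Breaks are then rejoined directly by end joining at any stage of the cell cycle, or copied from the sister chromatid by homologous recombination in S and G2 phases, while damaged bases, bulky lesions such as those made by ultraviolet light, and mismatches are cut out and filled in by the excision pathways. In skin these pathways are known for their part in protection from sunlight, since loss of nucleotide excision repair causes xeroderma pigmentosum, and hair follicle bulge stem cells are known for a rapid repair of breaks by end joining.

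The libraries differed in quality along the labels. HFSC libraries held 4324511 and 3132974 estimated counts in WT. Those with the Msx2-KO label, called labelled-KO libraries below, held 11016659 and 6895606. Of the genes in the HFSC table, 4.17% and 15.2% had no count in the WT libraries, against 50.8% and 38.7% in the labelled-KO libraries. The mitochondrial ribosomal RNAs took 8.94% and 36.3% of the counts in WT HFSCs and 49.4% and 53.2% in the labelled-KO libraries. In EpdSCs, where the values look like estimated counts divided by a factor per library and are called normalized signal, the order was the other way: 23.5% and 16.4% in WT and 0.0730% and 6.18% in labelled-KO libraries. The EpdSC values summed to 16478545 and 14681964 in WT and 24694442 and 14216483 in labelled-KO libraries, and genes listed at 0 numbered 281 and 210 in WT and 3281 and 945 in labelled-KO libraries. Such a 0 need not mean that a gene was silent. Between replicates, a repair gene differed by a median of 0.26 on the log2 scale in WT HFSCs and 1.24 in labelled-KO HFSCs, and by 0.25 and 1.52 in EpdSCs. The same medians over all genes with a mean of at least 20 were 0.31, 1.19, 0.23 and 1.28. The part of these differences in the results that follow was not tested.

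Msx2 itself was counted in every library. In HFSCs it had 39.4 and 12.6 normalized counts in WT and 24.3 and 21.3 in labelled-KO libraries (counts scaled to a common library size), and in EpdSCs a signal of 58.5 and 85.4 in WT and 150.3 and 22.2 in labelled-KO libraries. The groups overlapped in both cell types, with log2 fold changes of −0.20 ± 1.23 (SE; adjusted p = 0.975, edgeR) and −0.27 ± 1.10 (adjusted p = 0.865, limma). A gene count also takes in RNA from parts of Msx2 on either side of the cassette, so it does not check the labels. Directions given below rest on the labels.

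Of the sort antigens, the genes of CD34 and Sca-1 were each in only 1 of the tables. Itga6, for CD49f, was in both: it had 925 and 1055 normalized counts in WT HFSCs and 678 and 455 in labelled-KO HFSCs, and a signal of 8229 and 9959 in WT EpdSCs and 68397 and 32855 in labelled-KO EpdSCs, so it was lower in the former and higher in the latter. Of 12 HFSC markers all were in the HFSC table, with Krt15 taking the most at 26197 and 24781 normalized counts in WT and 12359 and 15420 in labelled-KO libraries, and Cd34 at 2736, 2432, 988 and 801. Their summed level was 70701 and 68568 in WT HFSCs and 39289 and 40518 in labelled-KO HFSCs. Of the 12, 9 were lower in both labelled-KO libraries (75%, beside 28.1% of all genes) and 2 were higher (16.7%, beside 21.1%). The higher ones were Krt14, at 3559 and 3722 against 4788 and 4109, and Tcf7l1, at 87.0 and 81.1 against 120 and 87.5. None of the 12 was called. Ly6a, which encodes the Sca-1 antigen used in the gate, had a signal of 472 and 544 in WT EpdSCs and 826 and 3493 in labelled-KO EpdSCs, and was not in the HFSC table used here. Fewer cells of a type and less RNA per cell cannot be told apart in bulk samples.

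In HFSCs no repair gene passed the test. Of the 53 genes, 51 had enough counts to be tested, and edgeR's quasi-likelihood test called 0 of them at an adjusted p under 0.05 and a fold change over 2, as it called 0 of all 14422 genes tested (0%). At an unadjusted p under 0.05 edgeR took 3 repair genes, against 18.1% of all genes tested. On the same genes DESeq2 called 0 repair genes while calling 4.67% of all genes, and limma-trend called 3 while calling 9.76%. The repair genes that could be tested had a median log2 fold change of −0.07, beside −0.14 for all genes tested, and these became −0.90 and −0.99 when library totals were used for scaling. Of the 51 genes tested, 3 had no count in either labelled-KO library. Set at the bound given by 3 counts per library, they still lay below the first median, which therefore could not move from −0.07. Of 41 repair genes that averaged 20 or more normalized counts, 5 were higher in both labelled-KO libraries than in both WT libraries, beside 21.1% of all genes at that level, and 6 were lower in both, beside 28.1%. The shares of repair genes, 12.2% and 14.6%, were below those of all genes.

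In EpdSCs a single repair gene passed the test, the checkpoint kinase gene Chek2, which rose 14.9-fold on the log2(signal + 1) scale. limma called 9.35% of all 16231 genes, 1.57% higher and 7.78% lower in the labelled-KO libraries, so 1 call among 53 repair genes (1.89%) was under the share of all genes. At an unadjusted p under 0.05 limma took 15 repair genes, 4 of them higher and 11 lower, which is 28.3% beside 35.3% of all genes. Of 52 repair genes with a mean signal of at least 20, 10 were higher in both labelled-KO libraries and 25 were lower in both. These shares, 19.2% and 48.1%, stand beside 31.4% and 41.4% of all genes. The median log2 fold change of the repair genes was −0.95, beside −0.64 for all genes. The count of repair genes called moved with single libraries: it was 19 (35.8%, beside 37.6% of all genes) without labelled-KO EpdSC replicate 1, 33 (62.3%, beside 63.9%) without replicate 2, and 0 without either WT library, where limma called 0 of all genes. In HFSCs the count was 14 (27.5%, beside 36.5%) without labelled-KO replicate 1 and 26 (52.0%, beside 59.1%) without replicate 2. Whether the cell types differ in their response was not tested, because the tables had been normalized separately.

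**Figure D1:**
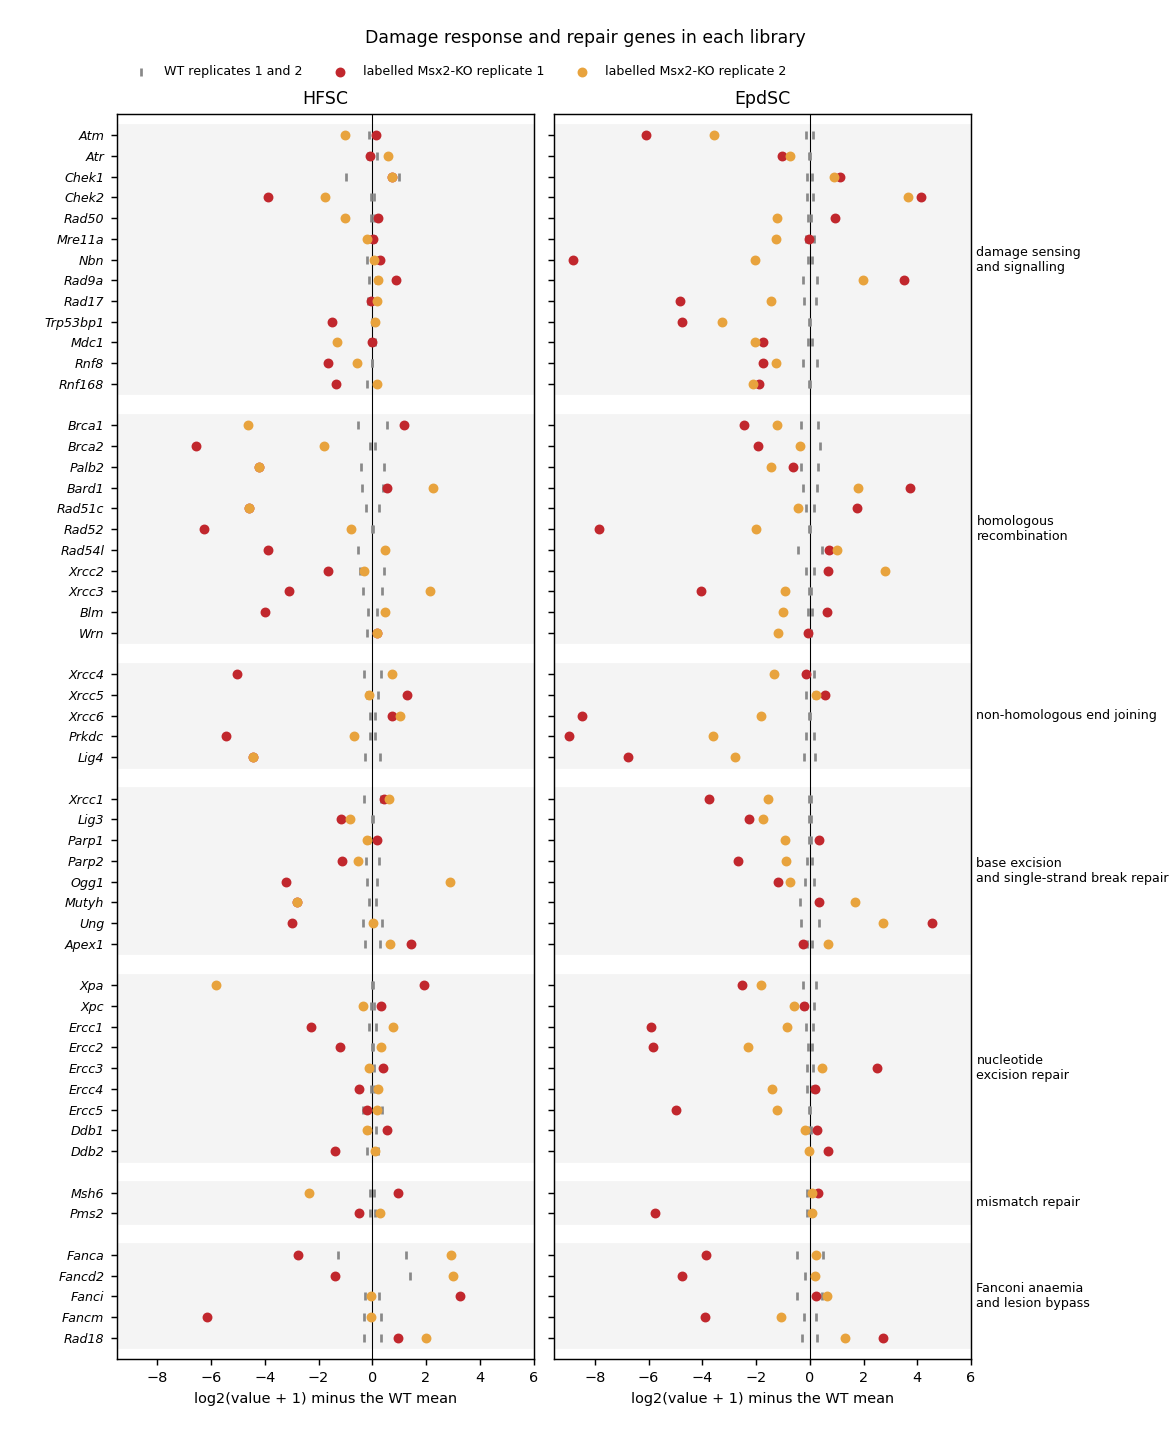
Each of the 53 repair genes in each library, as log2(value + 1) minus the mean of the WT libraries of its cell type (normalized counts in HFSCs, normalized signal in EpdSCs), grouped by role; grey bars are the WT replicates and coloured points the labelled-KO replicates. The WT bars lie close together while the labelled-KO points of a gene are often far apart, with a median gap of 1.24 in HFSCs and 1.52 in EpdSCs.

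Among the genes of damage sensing and signalling was the only gene called. Chek2, the kinase that relays the ATM signal to p53 and the cell cycle (chr5:110839979-110874145, + strand, GRCm38), had a signal of 74.7 and 64.5 in WT EpdSCs and 1253 and 874.9 in labelled-KO EpdSCs. Both labelled-KO libraries were far above both WT libraries, and the log2 fold change was 3.90 ± 0.50 (adjusted p = 0.0327, limma). The call was lost without WT replicate 1 (adjusted p = 0.326, limma) or WT replicate 2 (0.321), when no gene at all was called. The call was also narrowly lost with the replicate number as a block, as given in the last section. It held in 8 of 11 alternatives, over which the log2 fold change lay between 3.36 and 4.15. In HFSCs Chek2 was near the limit of counting and on the other side, with 32 and 12 estimated counts in WT and 1 and 5 in labelled-KO libraries (log2 fold change −2.80 ± 1.46, adjusted p = 0.460, edgeR).

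Atm, the kinase upstream of Chek2 (chr9:53439149-53536740, − strand), stood on the other side. Its signal was 782 and 934 in WT EpdSCs and 11.5 and 71.4 in labelled-KO EpdSCs. The groups were well apart, but the log2 fold change of −4.83 ± 1.03 missed the threshold in limma (adjusted p = 0.0698), and it passed with a pseudocount of 10 in place of 1 (adjusted p = 0.0430). Trp53bp1, the scaffold that steers breaks toward end joining, had 1264 and 1300 in WT EpdSCs and 46.4 and 132 in labelled-KO EpdSCs (log2 fold change −4.01 ± 0.71, adjusted p = 0.0534, limma). In HFSCs neither gene was apart between the groups: Atm had 367 and 312 normalized counts in WT and 375 and 164 in labelled-KO libraries. Trp53bp1, with the most counts of the sensing genes there though not the most per kilobase of exon, had 545 and 527 in WT and 188 and 577 in labelled-KO libraries. Of its exonic bases 15.04% are shared with Tubgcp4 on the opposite strand, and whether counting used the strand is not stated.

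Of the genes that act on chromatin after ATM, none was called. Mdc1, which binds phosphorylated histone at breaks, had in EpdSCs a signal of 1485 and 1345 in WT and 416 and 339 in labelled-KO libraries. Rnf168, a ubiquitin ligase that spreads the mark, had 862 and 886 in WT and 236 and 202 in labelled-KO libraries. In both genes the labelled-KO replicates lay close to each other, and neither reached the threshold in limma (adjusted p = 0.0866 and 0.0793). With an intensity trend in limma both were called, together with Trp53bp1, Lig3 and Chek2. Rnf8, the ligase that acts before Rnf168, was lower in labelled-KO libraries of both cell types: its signal was 609 and 431 against 152 and 211 in EpdSCs, and its normalized counts were 196 and 196 against 62.5 and 132 in HFSCs. Neither difference passed (adjusted p = 0.137 with limma and 0.462 with edgeR), and 13.2% of its exonic bases are shared with Gm28043 on the same strand.

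None of Rad50, Mre11a and Nbn, the genes of the break-end complex, was called. Rad50, the sensing gene with the largest mean signal over the 4 EpdSC libraries, had a signal of 953 and 1034 in WT and 1910 and 427 in labelled-KO libraries, so the labelled-KO replicates lay on opposite sides of WT. Nbn had 474 and 424 in WT EpdSCs, was listed at 0 in labelled-KO replicate 1 and had 109 in replicate 2 (log2 fold change −5.42 ± 2.50, adjusted p = 0.205, limma, and −2.03 without replicate 1). Mre11a overlapped between the groups in both cell types. Rad9a, a subunit of the clamp that loads at stalled forks, was higher in EpdSCs, with a signal of 52.9 and 76.0 in WT and 735 and 252 in labelled-KO libraries (log2 fold change 2.74 ± 0.75, adjusted p = 0.0984, limma), and 9.53% of its exonic bases are shared with Ppp1ca on the opposite strand. Of the 13 sensing genes, 3 were higher (23.1%) and 8 lower (61.5%) in both labelled-KO EpdSC libraries, beside 31.4% and 41.4% of all genes. In HFSCs only Rnf8 was apart among the 10 sensing genes with a mean of at least 20, beside 21.1% of all genes higher and 28.1% lower.

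Among the genes of homologous recombination, some had few counts in HFSCs. Palb2, which bridges BRCA1 and BRCA2, had 32 and 7 estimated counts in WT HFSCs, and Rad51c, which helps to build the recombination filament, had 26 and 15. Both were at 0 in both labelled-KO libraries, where 50.8% and 38.7% of all genes had no count. These libraries held more counts in all, but mitochondrial RNA took 56.6% and 62.1% of them, against 10.5% and 40.9% in WT. With 3 counts per library taken as the floor, Palb2 was at least 6.78-fold lower and Rad51c at least 8.63-fold lower. Both missed the threshold in edgeR (adjusted p = 0.143 for each), and passed it in limma-trend (0.0339 and 0.0327). They are named because they had an unadjusted p under 0.05, after their values were seen. In EpdSCs Palb2 was again lower in both labelled-KO libraries, with a signal of 102 and 65.4 in WT and 52.2 and 29.4, whereas Rad51c overlapped between the groups.

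Bard1, the partner of BRCA1 in its ubiquitin ligase (chr1:71027498-71103146, − strand), was higher in both cell types. Its signal in EpdSCs was 72.6 and 50.3 in WT and 819 and 214 in labelled-KO libraries (log2 fold change 2.77 ± 0.86, adjusted p = 0.118, limma). In HFSCs it had 16.4 and 9.01 normalized counts in WT and 18.2 and 62.7 in labelled-KO libraries, so replicate 1 was barely above WT (1.65 ± 1.32, adjusted p = 0.673, edgeR). The HFSC value of Bard1 lay between 0.45 and 2.20 over the alternatives, and was 0.63 with library totals. Brca1 itself did not follow in EpdSCs: its signal was 98.6 and 154 in WT and 21.6 and 52.6 in labelled-KO libraries. In HFSCs its groups overlapped, with 35.0 and 16.2 normalized counts in WT and 55.8 and 0 in labelled-KO libraries.

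Brca2, which helps to start strand exchange at resected ends, had 100.4 and 88.3 normalized counts in WT HFSCs and 0 and 26.0 in labelled-KO HFSCs (log2 fold change −2.88 ± 2.20, adjusted p = 0.658, edgeR). Rad52, an annealing protein, was lower in both cell types. It had 74.4 and 77.5 normalized counts in WT HFSCs against 0 and 43.8. In EpdSCs its signal was 229 and 224 in WT, and it was listed at 0 and at 55.9 in labelled-KO libraries (−4.91 ± 2.16, adjusted p = 0.193, limma, and −2.00 without replicate 1). Xrcc2 had a signal of 48.7 and 59.8 in WT EpdSCs and 86.6 and 377 in labelled-KO EpdSCs. Wrn, a helicase and the most abundant gene of this role per kilobase of exon in both cell types, had 201 and 151 normalized counts against 198 and 196 in HFSCs, and a signal of 577 and 530.2 against 534 and 241 in EpdSCs. Among 11 recombination genes, 3 were higher (27.3%, beside 31.4% of all genes) and 4 lower (36.4%, beside 41.4%) in both labelled-KO EpdSC libraries. In HFSCs, of 7 with a mean of at least 20, 1 was higher (14.3%, beside 21.1%) and 2 were lower (28.6%, beside 28.1%).

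Non-homologous end joining had the lowest median in EpdSCs, −4.78 over its 5 genes. In labelled-KO replicate 1, 3 of these genes were listed at 0 (60%, beside 20.2% of all genes). Both the median and its rank rest in part on that library. Without that library the log2 fold changes of these 3 were −3.60 for Prkdc, −2.79 for Lig4 and −1.81 for Xrcc6. Prkdc, which encodes the DNA-dependent kinase of the pathway (chr16:15637866-15842235, + strand), had a signal of 442 and 548 in WT EpdSCs and was listed at 0 and at 39.8 in labelled-KO EpdSCs (log2 fold change −6.27 ± 1.99, adjusted p = 0.123, limma). It was also lower in HFSCs, with 240.3 and 213 normalized counts in WT and 4.25 and 142 in labelled-KO libraries, where replicate 1 made most of the difference (−1.65 ± 1.53, adjusted p = 0.733, edgeR). Lig4, the ligase that closes the break, had 126 and 93.9 in WT EpdSCs and was listed at 0 and at 14.8. In HFSCs Lig4 had 23 and 14 estimated counts in WT and 0 in both labelled-KO libraries, at least 7.88-fold lower with the same floor (adjusted p = 0.143 in edgeR and 0.0327 in limma-trend).

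Neither gene of the Ku heterodimer, which binds broken ends first, was called in either cell type. Xrcc6, for Ku70 (chr15:81987835-82040085, + strand), had a signal of 352 and 365 in WT EpdSCs and was listed at 0 and at 102 in labelled-KO EpdSCs (log2 fold change −5.15 ± 2.46, adjusted p = 0.214, limma). In HFSCs it was higher, with 56.4 and 65.0 normalized counts in WT and 100.2 and 123 in labelled-KO libraries (0.88 ± 0.59, adjusted p = 0.594, edgeR), a difference that was 0.05 when library totals were used for scaling. Xrcc5, for Ku80, was the most abundant end joining gene per kilobase of exon in EpdSCs, with a signal of 273 and 331 in WT and 444 and 349 in labelled-KO libraries; its log2 fold change of 0.39 turned to −0.15 with mitochondrial and ribosomal RNA genes left out of the scaling. Xrcc4 overlapped between the groups in both cell types.

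Base excision and single-strand break repair held the largest positive difference after that of Chek2 in EpdSCs. Ung, the glycosylase that removes uracil from DNA (chr5:114130386-114139323, + strand), had 74.7 and 119 in WT EpdSCs and 2207 and 619 in labelled-KO EpdSCs. The labelled-KO replicates differed from each other more than 3-fold, and the log2 fold change of 3.62 ± 0.84 missed the threshold (adjusted p = 0.0792, limma). In HFSCs Ung had at most 7 estimated counts in a library and was not tested. Lig3, a DNA ligase that seals nicks, lay on the other side and had a signal of 1248 and 1312 in WT EpdSCs and 267 and 383 in labelled-KO EpdSCs (−2.00 ± 0.50, adjusted p = 0.0868, limma), and 209 and 215 normalized counts against 92.9 and 120.3 in HFSCs (−0.99 ± 0.39, adjusted p = 0.315, edgeR). Of its exonic bases 25.1% are shared with Rffl on the opposite strand.

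Parp2, which detects strand breaks, was lower in labelled-KO libraries of both cell types, with normalized counts of 147 and 106 against 56.5 and 85.2 in HFSCs and a signal of 296 and 337 against 48.4 and 171 in EpdSCs. Parp1, which detects strand breaks too, overlapped between the groups in both: 192 and 162 against 199.7 and 153 normalized counts in HFSCs, and 1021 and 1076 against 1340 and 546 in EpdSCs. Xrcc1, the scaffold that holds LIG3, was lower in EpdSCs, with 399.7 and 379 in WT and 28.0 and 132 in labelled-KO libraries (log2 fold change −2.65 ± 0.92, adjusted p = 0.138, limma). In HFSCs it was slightly higher, with 100.4 and 64.9 normalized counts in WT and 109 and 125 in labelled-KO libraries, a direction that turned when library totals were used for scaling (0.50 to −0.43). Apex1, the endonuclease that cuts at abasic sites, had 35.3 and 23.4 normalized counts in WT HFSCs and 79.2 and 46.1 in labelled-KO HFSCs (1.09 ± 0.96, adjusted p = 0.714, edgeR). That value was 0.21 when library totals were used for scaling. In EpdSCs Apex1 overlapped between the groups. It shares 61.7% of its exonic bases with Pip4p1 on the opposite strand. Of the 8 genes of the role, 1 was higher (12.5%, beside 31.4% of all genes) and 4 were lower (50%, beside 41.4%) in both labelled-KO EpdSC libraries, and Mutyh and Ung were the genes too low for the test in HFSCs.

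Nucleotide excision repair held the most abundant repair gene, and in HFSCs 0 of its 9 genes were apart between the groups, beside 21.1% of all genes higher and 28.1% lower. Ddb1, the adaptor that reads ultraviolet lesions with DDB2 and also serves many ubiquitin ligases, was the most abundant of all 53 genes per kilobase of exon. Its level was 105 normalized counts per kilobase in HFSCs and a signal of 728 per kilobase in EpdSCs, as means of the 4 libraries. In each library it had 673, 571, 908 and 535 normalized counts in HFSCs and a signal of 4697, 4420, 5509 and 4031 in EpdSCs, WT libraries first. Its log2 fold changes were 0.21 ± 0.34 and 0.05 ± 0.49, and both changed sign with library totals. Xpc, the lesion sensor, followed in HFSCs at 73.0 normalized counts per kilobase, and in WT EpdSCs alone Apex1 (a signal of 224 per kilobase) and Xpc (215) followed Ddb1 (711).

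Excision genes lay on both sides of WT in EpdSCs, and none was called. Ercc3, a helicase of TFIIH, had a signal of 427 and 366 in WT and 2253 and 538 in labelled-KO libraries, while Ercc2, the partner helicase in TFIIH, had 468 and 428 in WT and 6.90 and 90.6 in labelled-KO libraries. Of the exonic bases of Ercc2, 24.6% are shared with Gm26852 and 17.8% with Klc3 on the opposite strand. Xpa, the scaffold that verifies the lesion, had 183 and 258 in WT EpdSCs and 36.9 and 60.7 in labelled-KO EpdSCs (log2 fold change −2.17 ± 0.55, adjusted p = 0.0895, limma). None of them passed, and 1 gene was higher (11.1%, beside 31.4% of all genes) and 5 were lower (55.6%, beside 41.4%) in both labelled-KO EpdSC libraries. In HFSCs Xpa had 343 and 0 estimated counts in the labelled-KO replicates, both outside the range of 75 and 30 in WT.

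The mismatch repair genes Msh6 and Pms2 overlapped between the groups in both cell types. Msh6, which detects mispaired bases, had 225 and 204 normalized counts in WT HFSCs and 419 and 41.4 in labelled-KO HFSCs, and a signal of 868 and 985 against 1149 and 982 in EpdSCs. Of the 5 genes of Fanconi anaemia and lesion bypass, Fanca, Fancd2, Fanci and Fancm, which act on interstrand crosslinks, overlapped between the groups in HFSCs, and in EpdSCs Fancm was lower. Rad18, the ligase that marks PCNA for bypass of lesions (chr6:112619850-112696686, − strand), was higher in both cell types. It had 23.1 and 36.0 normalized counts in WT HFSCs and 56.5 and 119 in labelled-KO HFSCs (log2 fold change 1.57 ± 0.90, adjusted p = 0.515, edgeR). The HFSC value of Rad18 lay between 0.77, with library totals, and 2.04 over the alternatives. In EpdSCs its signal was 82.3 and 122 in WT and 661 and 251 in labelled-KO libraries (2.01 ± 0.71, adjusted p = 0.142, limma).

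**Figure D2:**
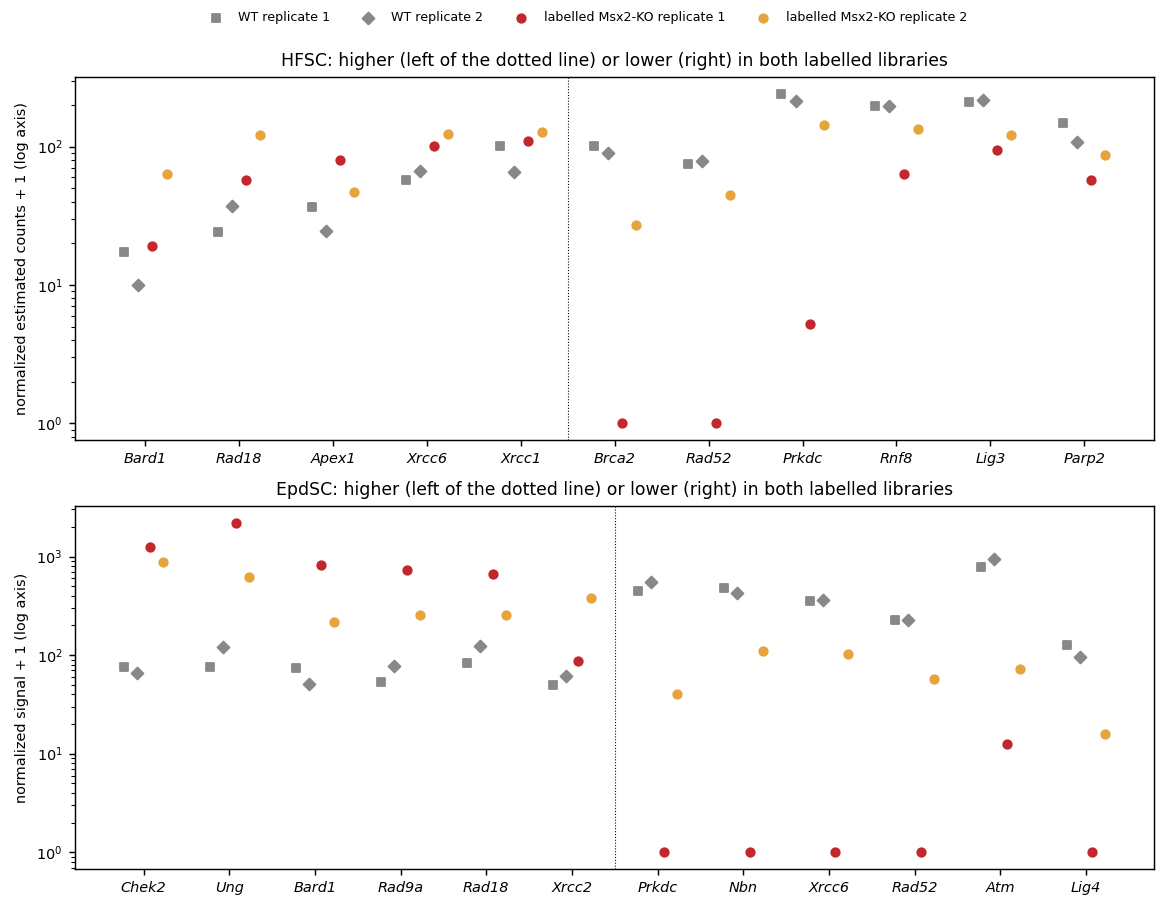
Values in every library for the repair genes with the largest differences on either side among those with a mean of at least 20 and no overlap between the groups, in HFSCs (top, normalized counts + 1) and EpdSCs (bottom, normalized signal + 1), on log axes; squares and diamonds are WT and circles are labelled-KO libraries. In EpdSCs, Prkdc, Nbn, Xrcc6, Rad52 and Lig4 were listed at 0 in labelled-KO replicate 1 and lay between 14.8 and 109 in replicate 2.

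Of 41 repair genes with a mean of at least 20 in both cell types, 9 had groups apart in both (22%), beside 36.6% of 10644 genes at that level. Bard1 and Rad18 were higher in both (4.88%, beside 6.91%), and Rnf8, Rad52, Prkdc, Lig3 and Parp2 were lower in both (12.2%, beside 12.5%). Xrcc6 and Xrcc1 were higher in HFSCs and lower in EpdSCs (4.88% with opposite sides, beside 17.2%). The summed level of the 53 genes was 6393 and 6195 normalized counts in WT HFSCs and 5912 and 5573 in labelled-KO HFSCs. In EpdSCs it was a signal of 24178 and 24441 in WT and 23820 and 15764 in labelled-KO libraries. The library sums differed, and as shares of them both labelled-KO EpdSC libraries were below WT (0.147% and 0.166% against 0.0965% and 0.111%). As shares of the HFSC totals, the repair genes took 0.199% and 0.110% in WT and 0.0884% and 0.0683% in labelled-KO libraries.

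Other genes of the same pathways were listed too. Of 101 further pathway genes, 98 were in the HFSC table and 95 were tested there, with 0 called, and 99 were in the EpdSC table, with 2 called lower and 0 higher (2.02%, beside 9.35% of all genes). The 2 were Recql4, a helicase (97.3 and 74.6 in WT, listed at 0 and at 2.72 in labelled-KO libraries; log2 fold change −5.48 ± 0.84, adjusted p = 0.0431, limma), and Mlh3, a mismatch repair and recombination protein (351 and 433 in WT, 20.4 and 43.8 in labelled-KO libraries; −3.66 ± 0.61, adjusted p = 0.0492, limma). The list's median log2 fold change was −0.04 in HFSCs and −0.34 in EpdSCs, beside −0.14 and −0.64 for all genes. Among genes with groups apart in EpdSCs, Neil3, a DNA glycosylase, had 33.6 and 53.1 in WT and 691 and 177 in labelled-KO libraries, and Rad1, a subunit of the checkpoint clamp, had 102 and 119.5 in WT and 1231 and 355 in labelled-KO libraries. The largest negative differences there were those of Slx4, Fan1 and Eme2, nucleases or nuclease scaffolds, each at or near 0 in labelled-KO replicate 1. In HFSCs the ranking was limited to genes with a mean of at least 20 and groups apart. The largest differences among these were those of Neil2, Brip1 and Tdg on the higher side and Gtf2h3, Fancg and Aptx on the lower side. Gtf2h3, a TFIIH subunit, had 46.9 and 50.4 normalized counts in WT and 0 in both labelled-KO libraries.

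Of p53 and its damage targets no gene was called in either cell type. In EpdSCs 24 were tested, 13 were higher (54.2%, beside 31.4% of all genes) and 4 lower (16.7%, beside 41.4%) in both labelled-KO libraries, and the median log2 fold change was 0.57, beside −0.64 for all genes. Trp53, which encodes p53, had a signal of 741 and 816 in WT EpdSCs and 3667 and 3435 in labelled-KO EpdSCs (2.19 ± 0.46, adjusted p = 0.0684, limma). Its target Ccng1, a cyclin-like protein, had 634 and 686 in WT and 4850 and 3460 in labelled-KO libraries (2.63 ± 0.49, adjusted p = 0.0583, limma). Perp, a target that is also a desmosome protein of epidermis, had 40224 and 34019 in WT and 269508 and 166709 in labelled-KO libraries. The arrest gene Cdkn1a went the other way, with 2022 and 1449 in WT and 579 and 819.6 in labelled-KO libraries, as did Phlda3. Mdm2 was lower too, at 841 and 842 in WT and 178 and 822 in labelled-KO libraries, so replicate 2 was near WT. In HFSCs 23 of the 24 were in the table and 0 of 22 tested were called. Of 18 with a mean of at least 20, 1 was higher (5.56%, beside 21.1%) and 10 were lower (55.6%, beside 28.1%) in both labelled-KO libraries, and the median was −0.67, beside −0.14 for all genes. The difference between the cell types was not tested. Mdm2, the ligase that degrades p53, was the higher one, with 236 and 247 normalized counts in WT and 259 and 364 in labelled-KO libraries. Among those 18, the largest negative differences with groups apart were those of Btg2, Ppm1d and Tnfrsf10b, and Btg2 alone spread from 257 to 2392 between the WT libraries.

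Cycling and differentiation markers are given beside the repair genes. Of 12 markers of cycling cells, none was called in HFSCs, 8 were higher in both labelled-KO HFSC libraries and 0 lower (all genes: 21.1% and 28.1%), and their summed level was 320.0 and 382 normalized counts in WT and 3620 and 3033 in labelled-KO libraries. Mki67, with the most counts, had 141 and 217.99 against 2338 and 1318, while Cdk1, Aurkb, Bub1 and Plk1 were at 0 in at least 1 HFSC library. In EpdSCs 8 of 12 were higher and 2 lower (all genes: 31.4% and 41.4%), and limma called 4 of them higher. The summed signal was 4553 and 3843 in WT and 10959 and 5377 in labelled-KO libraries, and Ube2c was at 72.6 and 70.2 against 4434 and 1678. Mki67, which took the most in WT, was lower there, at 2517 and 2055 against 7.64 and 294. The part of cycling cells in the values of repair genes was not tested.

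Suprabasal markers summed to 952 and 1111 normalized counts in WT HFSCs and 4185 and 15872 in labelled-KO HFSCs. There 5 of 7 were higher (71.4%, beside 21.1% of all genes), and none was called. Most of the WT sum came from Sbsn, and Lor was at 0 in some libraries. In EpdSCs these markers summed to a signal of 272064 and 193459 in WT and 42673 and 72215 in labelled-KO libraries. Of 6 with a mean of at least 20 there, 4 were lower (66.7%, beside 41.4% of all genes). limma called 2 of them lower (Sbsn and Ivl). Interfollicular basal markers, of which several are shared with the HFSC list, summed to 45138 and 46378 against 26880 and 26371 in HFSCs, and to 234109 and 281465 against 628625 and 520276 in EpdSCs. HFSC markers summed to 259477 and 308185 in WT EpdSCs and 843274 and 628327 in labelled-KO EpdSCs, where Krt14, also a basal keratin, took the most in labelled-KO libraries but not in WT. Sebaceous gland markers, led by Scd1, summed to 195 and 176 against 6646 and 5064 in HFSCs and to 3849 and 4648 against 23827 and 10252 in EpdSCs. The EpdSC sum was almost all Scd1, and Plin2 lay on the other side, at 218.8 and 136 against 7.64 and 78.9.

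Markers of cells outside the epithelium were low. Immune markers summed to 50.6 and 27.0 normalized counts in WT HFSCs and 112 and 58.0 in labelled-KO HFSCs, and to a signal of 551 and 41.7 in WT EpdSCs and 22.9 and 6.07 in labelled-KO EpdSCs. Cd74 was at 26.0 and 9.01 against 112 and 58.0 in HFSCs and at 374 and 37.9 against 0 and 2.70 in EpdSCs, and Ptprc was at 0 in at least 1 library of each cell type. Fibroblast markers summed to 283 and 362 against 157 and 79.3 in HFSCs. Col1a2 took the most except in labelled-KO replicate 2, and Pdgfra was at 0 in at least 1 library. Melanocyte markers summed to 83.8 and 175 against 272 and 99.4 in HFSCs, mostly from Dct, while Tyrp1 and Pmel were at 0 in both labelled-KO libraries. Endothelial markers summed to 115 and 32.7 against 34.0 and 22.5 in HFSCs and to 36.8 and 26.6 against 24.2 and 20.9 in EpdSCs, where Pecam1 was higher and Vwf lower in both labelled-KO libraries. No fibroblast or melanocyte marker was in the EpdSC table used here. The part of these cells in the values of repair genes was not tested.

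**Figure D3:**
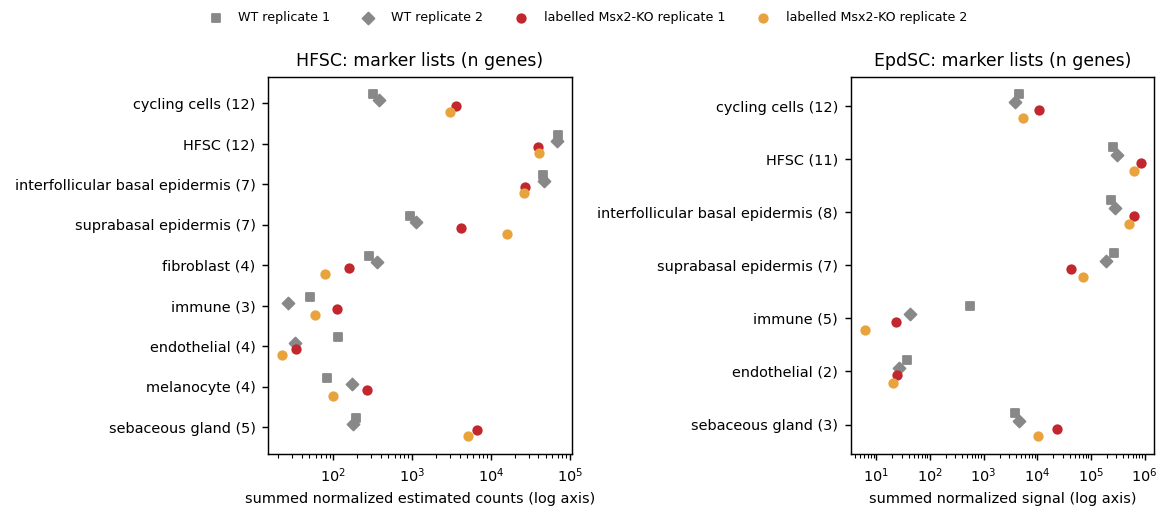
Summed level of each marker list in every library, in normalized counts for HFSCs (left) and normalized signal for EpdSCs (right) on log axes, with the number of list genes in the table in brackets; squares and diamonds are WT and circles are labelled-KO libraries. The sums of cycling and sebaceous markers were higher in labelled-KO libraries of both cell types, the latter mostly through Scd1, and those of suprabasal markers were higher in HFSCs and lower in EpdSCs.

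Gene structure was also compared across the repair genes, which are not independent replicates. Spearman's rho between the log2 fold change and the exonic length was −0.45 over 41 repair genes in HFSCs and −0.28 over 52 in EpdSCs, beside −0.22 and −0.09 over 9928 and 10965 protein-coding genes at the same level. With the genomic span it was −0.01 and −0.09 for the repair genes, beside −0.18 and −0.01 over the same protein-coding genes. Length, level and counting error move together, and their part was not tested.

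Promoters of the repair genes were also read. RefSeq promoter windows (250 bases before to 50 after the transcription start, GRCm38.p6) were matched for 43 of the 53 genes. The letters of E2F sites, TTTCGCGC, TTTGGCGC, TTTCCCGC or TTTGCCGC on either strand, were found for 7 of the 43 (16.3%), against 2.60% of 27025 genes with a window. The 7 were Bard1, Brca2, Chek2, Mdc1, Msh6, Rad51c and Xrcc6, of which Chek2 and Bard1 were higher and Mdc1 and Xrcc6 lower in labelled-KO EpdSCs. CCAAT, the letters bound by NF-Y, was found for 55.8% against 41.1%, and CCGGAAGT of ETS factors for 11.6% against 4.31%; a site of NRF1 was found for 2.33% against 1.07%. TAATTG, the core letters bound by MSX homeodomains, was found for 2 genes, Palb2 and Xrcc3 (4.65% against 9.22%). The windows of Chek2, Bard1 and Xrcc6 are shown because these genes share E2F letters and lay on different sides in EpdSCs. Capitals mark E2F letters (TTTCCCGC or its reverse complement GCGGGAAA) and NF-Y letters (CCAAT or ATTGG). A match is only a description of these letters. The windows lie at chr5:110839733-110840032 (+ strand), chr1:71102923-71103222 (− strand) and chr15:82016119-82016418 (+ strand). The RefSeq start of Xrcc6 lies inside the span given above, which begins at an earlier transcript start in GENCODE.
Chek2: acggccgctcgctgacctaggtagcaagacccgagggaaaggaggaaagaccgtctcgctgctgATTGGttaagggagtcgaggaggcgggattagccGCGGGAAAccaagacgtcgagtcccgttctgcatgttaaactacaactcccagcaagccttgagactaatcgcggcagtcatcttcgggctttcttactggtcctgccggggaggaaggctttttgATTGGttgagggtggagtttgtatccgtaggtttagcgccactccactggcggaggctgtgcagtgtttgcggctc
Bard1: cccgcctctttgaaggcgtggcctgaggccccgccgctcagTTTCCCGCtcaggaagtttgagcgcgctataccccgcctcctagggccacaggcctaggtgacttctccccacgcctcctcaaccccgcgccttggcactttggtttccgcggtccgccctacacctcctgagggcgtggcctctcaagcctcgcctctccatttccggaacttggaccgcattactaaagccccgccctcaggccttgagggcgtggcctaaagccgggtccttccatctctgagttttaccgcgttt
Xrcc6: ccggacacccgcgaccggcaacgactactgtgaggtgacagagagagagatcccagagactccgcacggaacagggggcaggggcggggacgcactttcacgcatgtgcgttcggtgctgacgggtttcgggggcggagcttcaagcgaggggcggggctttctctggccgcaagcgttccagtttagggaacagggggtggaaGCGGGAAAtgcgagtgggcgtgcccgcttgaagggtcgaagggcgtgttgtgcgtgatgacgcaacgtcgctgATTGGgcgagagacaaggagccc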

How the data were processed

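Per the submitters' notes, RNA libraries were stranded and made from total RNA (SMARTer chemistry, version 3), and reads were aligned with STAR 2.7.3a in Partek Flow to GRCm38/mm10, with GENCODE annotation. Whether the strand was used when reads were assigned to genes is not given in the sources used here. The HFSC values deposited by the authors are estimated counts, without normalization. The EpdSC values deposited by the authors are a signal, which looks like estimated counts divided by 1 factor per library, on genes that passed a filter. Neither that filter nor the rule for the factor is given in the sources used here. The value of 1 count, read from the smallest steps between values, was 1.08 and 0.949 in WT and 1.27 and 0.674 in labelled-KO libraries, but only 49.1%, 51.8%, 82.1% and 74.2% of values were whole multiples of it, so the factor is a reading and not given by the authors. The authors' own comparisons (fold changes, p-values) were not used.

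HFSC counts were rounded, filtered with filterByExpr and scaled by TMM. The quasi-likelihood test of edgeR 4.0.16 was then run for 14422 genes. Values shown were scaled to the median library total, 5610059. For EpdSCs, limma 3.58.1 was run for log2(value + 1) of all 16231 genes, a scale that understates changes of low genes. Calls needed a Benjamini-Hochberg adjusted p under 0.05 over all genes tested and a fold change over 2. With 2 libraries against 2, an exact permutation test cannot go below 0.333, so none was run. DESeq2 1.42.0 and limma-trend were alternatives for HFSCs. R 4.3.3 and Python 3.11.15 were used.

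Genes were named by a rule: a mean of at least 20 and no overlap between groups, up to 6 on each side per cell type (3 for other pathway genes), the gene with the largest mean over the 4 libraries in each role, and genes with an unadjusted p under 0.05. Further genes were added to show partners in a complex, after their values were seen. The members and lists were chosen with earlier results of these data known. Exonic lengths and coordinates are from GENCODE M21 (same build), where 52 of 53 repair genes have the start and end of the HFSC table, whose ends are 1 base larger. By the numbers in the column names, WT EpdSC and labelled-KO HFSC libraries form 1 run, while WT HFSC and labelled-KO EpdSC libraries each have a numbering of their own. What the numbering marks is not given, and within a cell type it cannot be told apart from genotype. Floors of 3 counts cover counting error only. Some genes that meet the rule are not reported here.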

Additional observations from a re-analysis of the deposited data

Results flagged for a closer look

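Some results lay on opposite sides in the cell types, with every labelled-KO library above both WT libraries in HFSCs and below both in EpdSCs, or the reverse. None of these differences was tested, since the tables had been normalized separately. The numbering of the column names links WT EpdSC with labelled-KO HFSC libraries, and its part was not tested. Among the repair genes they were Xrcc6, with a log2 fold change in EpdSCs minus that in HFSCs of −6.03, and Xrcc1, with −3.15. The Xrcc6 value rests in part on a library where the gene is listed at 0, and its HFSC difference of 0.88 was 0.05 with library totals, while the HFSC direction of Xrcc1 turned with library totals.

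Marker sums lay on opposite sides too. The log2 ratio of labelled-KO to WT in EpdSCs minus that in HFSCs was 2.18 for HFSC markers, 1.94 for interfollicular basal markers, −5.30 for suprabasal markers and −5.49 for immune markers. In EpdSCs 4 of 8 basal markers were higher and 3 lower, and the difference in the sum was mostly that of Krt14. The HFSC immune sum was that of Cd74 alone in labelled-KO libraries, where Ptprc and Lyz2 had no count. The immune value rests largely on WT EpdSC replicate 1, with a summed signal of 551 against 41.7 in the other WT library.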

How the results depend on the processing

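Of the log2 fold changes of named repair genes under the alternatives, 183 in HFSCs and 201 in EpdSCs kept their direction and their side of the threshold, 20 and 30 kept the direction and passed only under the alternative, 3 in EpdSCs (all of Chek2) lost the call, and 16 and 8 changed direction. Where a value moved and no construction is named, the cause was not tested. The number of genes called in HFSCs, 0 as reported, was 674 with DESeq2, 1407 with limma-trend, 45 with library totals and 2 with at least 10 counts in every library. Repair genes called there numbered 3 with limma-trend and 0 with the other tools, filters and scalings. Their median log2 fold change, −0.07 as reported, was −0.90 with library totals, where that of all genes went from −0.14 to −0.99, and −0.39 with limma-trend. In EpdSCs the repair genes called, 1 as reported, numbered 5 (9.43%, beside 13.1% of all genes) with an intensity trend in limma and 4 (7.55%, beside 12.2%) with a pseudocount of 10. Their median, −0.95 as reported, was −1.21 with library totals, −1.47 without mitochondrial and ribosomal RNA genes and −0.78 with a pseudocount of 10, and that of all genes went from −0.64 to −0.88 and −1.14 with these scalings.

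Scaling turned the direction of further repair genes that were not named for it, among them Xrcc5 (0.76 to −0.076) and Rad9a (0.61 to −0.15) in HFSCs with library totals. For named values, with library totals, HFSC values were −0.43 for Xrcc1, −0.73 for Wrn, −0.62 for Ddb1 and −0.64 for Msh6, and EpdSC values were −0.22 for Ddb1 and −0.069 for Msh6. Without mitochondrial and ribosomal RNA genes, EpdSC values were −0.15 for Xrcc5, −0.49 for Ddb1 and −0.34 for Msh6. Parp1 in HFSCs (−0.01 as reported) was 0.018 with DESeq2 and with RLE factors and 0.070 with at least 10 counts in every library, and Msh6 was −0.67 with limma-trend.

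Leaving out 1 library at a time left 1 library in a group, which the fits take to vary like the others. It gave 132 to 9274 calls in HFSCs and 0 to 10376 in EpdSCs, 0 to 26 and 0 to 33 repair genes called, and medians of −0.38 to 0.037 and −1.03 to −0.86. In HFSCs log2 fold changes ran from −1.52 to 0.080 for Trp53bp1, −0.12 to 0.36 for Wrn, −0.24 to 0.16 for Parp1, −0.24 to 0.54 for Ddb1 and −2.39 to 0.96 for Msh6. In EpdSCs they ran from −1.21 to 0.94 for Rad50, −0.94 to 0.35 for Parp1 and −0.18 to 0.27 for Ddb1. The widest ranges with 1 direction were −8.81 to −2.03 for Nbn, −8.49 to −1.81 for Xrcc6, −7.83 to −2.00 for Rad52, −6.78 to −2.79 for Lig4 and −8.95 to −3.60 for Prkdc in EpdSCs, and −9.81 to −1.88 for Brca2, −9.49 to −0.81 for Rad52 and −5.71 to −0.70 for Prkdc in HFSCs. Counts were high without a labelled-KO library because the spread between these libraries was then gone from the fit.

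Replicate numbers are the same in both genotypes, but same-number libraries shared no deviation (correlation −0.01 over 11587 genes in HFSCs and −0.05 over 13428 in EpdSCs), so they share only a number. With the number as a block, edgeR called 231 genes and 0 repair genes in HFSCs, with a median of −0.58 for the repair genes and −0.65 for Msh6. limma called 1271 genes in EpdSCs in place of 1518, with Atm (adjusted p = 0.0484) and without Chek2 (0.0541) among the repair genes. A count-based test of EpdSCs was not run, because the values did not turn back into whole counts. In HFSCs 12 of 53 repair genes were below a mean of 20 normalized counts, where counting error is large. In the labelled-KO libraries 11 and 6 repair genes had no count (20.8% and 11.3%, beside 50.8% and 38.7% of all genes). These libraries had the larger totals, of which mitochondrial RNA took 56.6% and 62.1%.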
